A study of Mus musculus with 2 samples.

Results

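The collagen genes are the genes whose symbol is Col, a number, a and a number, with nothing after it. Of 22023 genes listed for both libraries, 43 met this rule, and all 43 had 20 or more unique molecular identifiers (UMIs, each standing for 1 captured RNA molecule) over both libraries. The lowest was Col24a1, with 13 UMIs in WT and 11 in Mettl3pKO. The libraries came from pancreata of mouse fetuses at stage E15.5, dissociated with an enzyme and captured on the BD Rhapsody platform, with 1 library of WT pancreas and 1 of Mettl3pKO pancreas. Mettl3pKO fetuses lack Mettl3, which places the N6-methyladenosine mark on RNA, in the Pdx1+ progenitors that give rise to the pancreatic epithelium and not in the surrounding mesenchyme. The sources used here do not give the Cre line, the alleles, the strain or the number of fetuses behind each library. With 1 library per genotype there is no test of genotype: every interval below covers counting error only, and differences between the genotypes, the fetuses and the preparations cannot be told apart.

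Collagens are triple helices of alpha chains, each chain encoded by its own gene. Fibrillar collagens build the fibres of connective tissue, network-forming type IV collagen is the scaffold of basement membranes under epithelium and around vessels, beaded-filament type VI collagen links cells to both, and fibril-associated collagens coat the fibres. In the fetal pancreas the mesenchyme lays down most of this matrix, while epithelium and endothelium add basement membrane chains of their own.

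The WT library held 6384 cells with a median of 10824 UMIs and the Mettl3pKO library 3624 cells with a median of 16481, and 33 cell labels occurred in both. The Mettl3pKO cells stood apart in depth: none had under 10719 UMIs. Doublet calling marked 338 of 6372 filtered WT cells, or 5.30%, and 1 of 3623 Mettl3pKO cells, or 0.0276%, so the caller failed on the latter library, which still holds its doublets. Mettl3 itself, over the epithelial classes, stood at 13.0 UMIs per 1000000 UMIs in WT and 8.17 in Mettl3pKO, a ratio of 0.627 (0.555 to 0.707). This pooled ratio also reflects the mix of classes, which differed between the libraries. Taken singly, acinar-like cells had a ratio of 0.775 (0.653 to 0.920) and duct and trunk-like cells one of 0.673 (0.520 to 0.864). Alpha-like cells had 0.743 (0.441 to 1.21) and beta-like cells 0.584 (0.334 to 0.987). Mettl3 stood at 16.4 and 13.5 in mesenchyme-like cells, a ratio of 0.822 (0.595 to 1.12). Its interval there overlaps that of each epithelial class given. Its mesothelium-like ratio stood at 1.56 (0.892 to 2.74) and its erythroid-like one at 0.378 (0.152 to 0.830). Which part of the gene is deleted is not stated in those sources, so UMIs from a remaining part of the transcript would still be counted. Male-marked cells (a UMI of a Y-linked gene, no Xist UMI) made up 32.9% of the mesenchyme-like class in WT and 64.9% in Mettl3pKO, and female-marked cells (Xist, no Y-linked UMI) 53.8% and 16.3%. All 10 mesenchyme marker genes, such as Pdgfra, Dcn and Lum, were detected in the mesenchyme-like class of both libraries.

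Collagen genes took 658711 UMIs, or 0.823% of all UMIs, in the WT library and 274530, or 0.417%, in the Mettl3pKO library. Mesenchyme-like cells (1178 in WT, 282 in Mettl3pKO) held 80.7% of the collagen UMIs of the kept WT cells and 56.9% of those in Mettl3pKO. Mesothelium-like cells (202 and 77), the lining of the organ's surface, held 9.98% and 10.7%. Within mesenchyme-like cells, collagens took 44025 of every 1000000 UMIs in WT and 38972.0 in Mettl3pKO. In Mettl3pKO another 19.1% lay in cells given no class, mainly a cluster of 181 cells (16 in WT) in which mesenchymal genes such as Ogn and Mfap4 led beside the epithelial gene Onecut2 and the median doublet score was 0.119. Col1a1 stood at 3859 UMIs per 1000000 UMIs in that cluster, against 11792 in Mettl3pKO mesenchyme-like cells. Whether those cells are doublets was not tested, and in WT the unnamed share was 0.489%.

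Levels are given throughout as UMIs of a gene per 1000000 UMIs of the class (CPM). They allow a gene to be compared between classes but not with another gene, since length and capture differ. Among classes of 30 or more cells, 41 members had 20 or more UMIs in the kept WT cells, and for 17 of them the highest class was mesenchyme-like: Col1a1, Col1a2, Col3a1, the 3 type V genes, Col6a1, Col6a2, Col6a3, Col6a4, Col6a6, Col7a1, Col8a2, Col16a1, Col23a1, Col26a1 and Col27a1. Mesothelium-like cells were highest for 8 (Col4a3 to Col4a6, Col6a5, Col11a1, Col14a1, Col17a1), endothelium-like cells for 5 (Col4a1, Col4a2, Col13a1, Col15a1, Col18a1), smooth muscle and pericyte-like cells for 3 (Col8a1, Col12a1, Col25a1) and duct and trunk-like cells for 3 (Col2a1, Col9a1, Col9a3). Endocrine progenitor-like cells were highest for Col9a2 and Col11a2, acinar-like cells for Col19a1 and Col20a1, and delta-like cells for Col28a1. Of these calls 5 rest on fewer than 20 UMIs in the class: Col28a1 on 3, Col17a1 on 8, Col4a3 on 14, Col25a1 on 15 and Col19a1 on 16. The remaining pair, Col22a1 (20 UMIs in the WT library and 5 in Mettl3pKO) and Col24a1, had too few UMIs to be placed. For 9 members (Col4a1, Col4a2, Col4a3, Col5a1, Col6a4, Col6a6, Col9a3, Col15a1 and Col22a1) an exon overlaps an exon on the other strand, for Col9a3 that of Tcfl5. No source used here says whether counting used strand, so reads of such partners may be mixed.

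**Figure D1:**
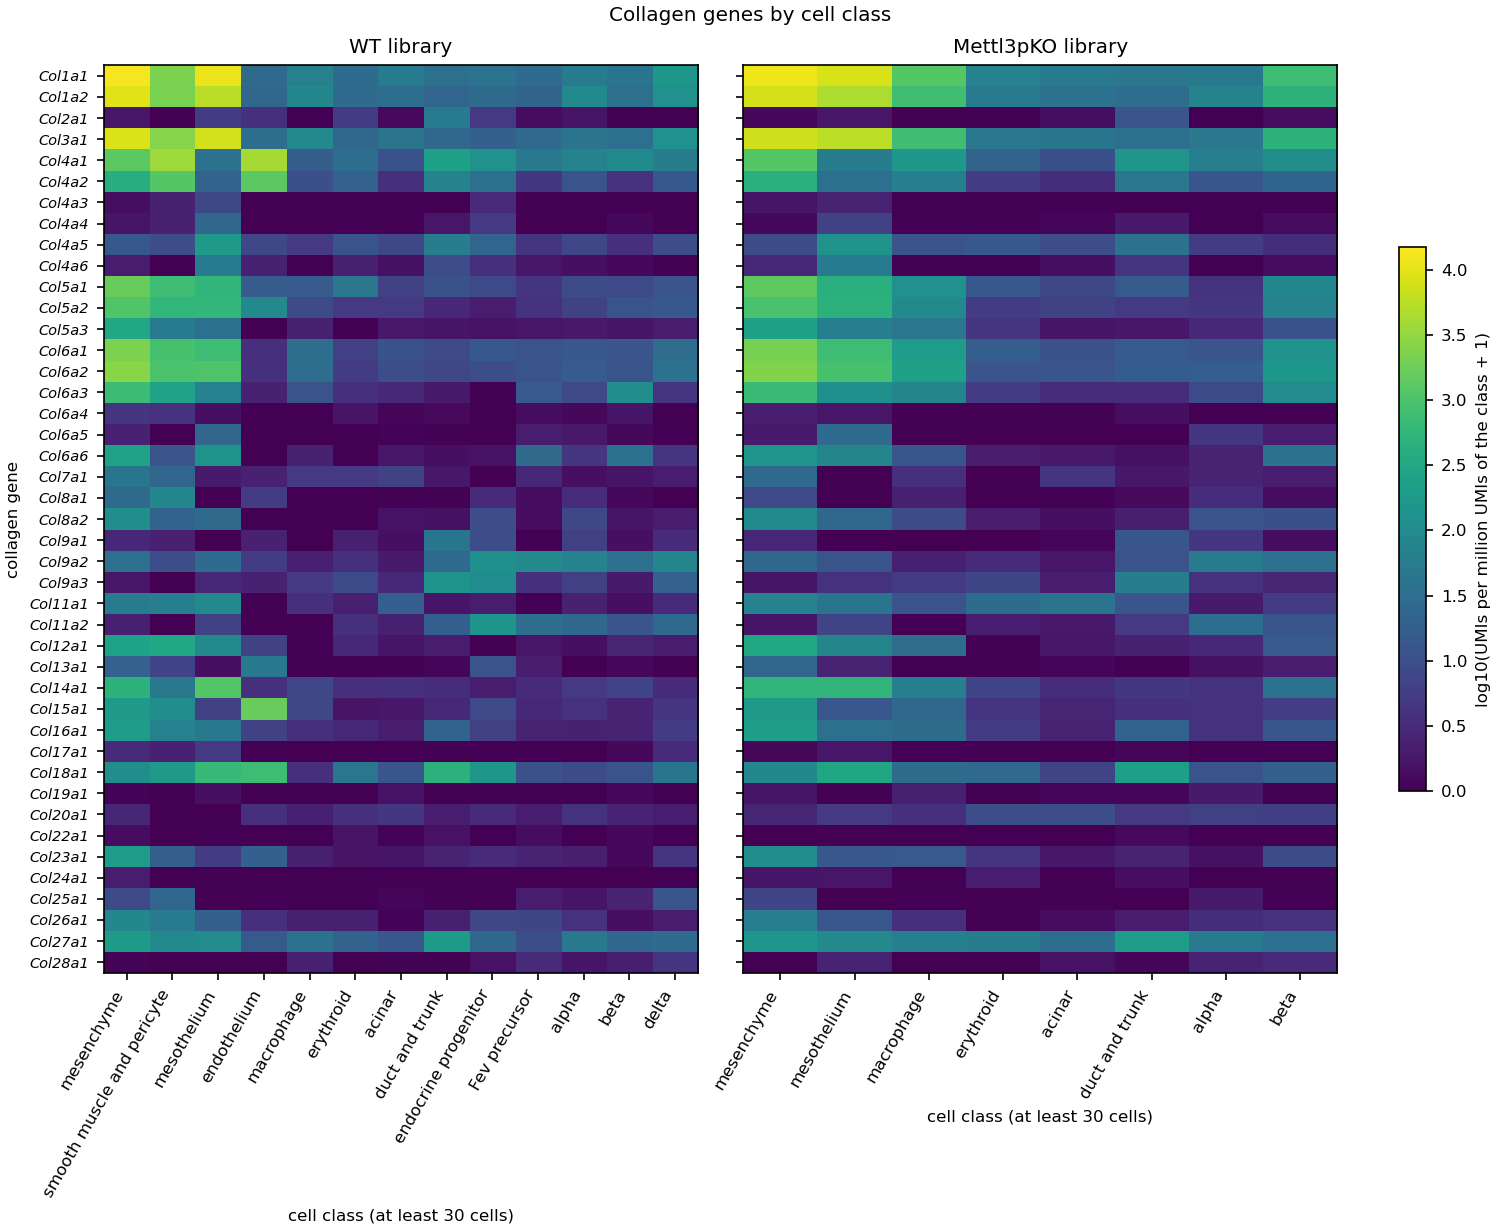
Level of each of the 43 collagen genes (y axis) in each class of at least 30 cells (x axis), as log10 of the CPM plus 1, for the WT library (left) and the Mettl3pKO library (right). Bright squares for Col1a1, Col1a2 and Col3a1 lie in the mesenchyme and mesothelium columns, the bright squares of Col4a1 and Col4a2 in the endothelium and smooth muscle columns, and the Mettl3pKO beta and macrophage columns are brighter than their WT counterparts for the genes of mesenchyme.

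Type I and type III collagen, the main fibres of connective tissue, come from Col1a1, Col1a2 and Col3a1. In mesenchyme-like cells Col1a1 stood at 12942 CPM in the WT library and 11792 in the Mettl3pKO library, a ratio of 0.911 (0.902 to 0.921). Col1a2 stood at 9643 and 8206, a ratio of 0.851 (0.840 to 0.862), and Col3a1 at 8757 and 7415, a ratio of 0.847 (0.836 to 0.858). All 3 were thus slightly lower in Mettl3pKO, by less than 1.5-fold, over the whole class. The mesenchyme-like class had 2 clusters, cluster 26 (904 WT and 129 Mettl3pKO cells) and cluster 28, whose leading genes include the cell cycle gene Cdkn2c (274 and 153 cells). Within cluster 26 the ratios were 1.03 (1.02 to 1.05), 0.958 (0.943 to 0.974) and 0.956 (0.940 to 0.973) in the same order, and within cluster 28 they were 0.941 (0.925 to 0.958), 0.887 (0.869 to 0.906) and 0.836 (0.818 to 0.854). Col1a1 was therefore slightly higher in cluster 26 and lower in cluster 28. In male-marked cells Col1a1 had a ratio of 0.978 (0.964 to 0.992), and in female-marked cells 0.744 (0.725 to 0.764).

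The promoter window of Col1a2 is printed because this gene took a larger share of the type I and III collagen UMIs in alpha-like cells, described further on. RefSeq windows of 300 bases (250 before a start site and 50 after it, build GRCm38.p6) were found for 34 of the 43 members, in 37 windows. Capitals mark CCAAT, the box bound by nuclear factor Y, on either strand; Col1a2 lies at chr6:4505368-4505667, plus strand.
Col1a2: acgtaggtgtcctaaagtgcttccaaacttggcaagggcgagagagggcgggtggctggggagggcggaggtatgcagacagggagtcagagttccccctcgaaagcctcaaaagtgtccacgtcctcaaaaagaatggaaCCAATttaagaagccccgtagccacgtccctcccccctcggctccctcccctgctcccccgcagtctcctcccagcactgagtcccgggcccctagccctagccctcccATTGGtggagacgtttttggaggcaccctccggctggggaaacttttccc
CCAAT (searched as CCAAT and ATTGG) was present in 13 of the 37 collagen windows, or 35.1%, and in 37.4% of all 32851 windows. GGGCGG (searched as GGGCGG and CCGCCC), the GC box, was present in 23, or 62.2%, against 35.7% of all windows.

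Type V collagen nucleates type I fibrils. In mesenchyme-like cells Col5a1 stood at 1612 CPM in the WT library and 1366 in the Mettl3pKO library (ratio 0.847, interval 0.822 to 0.873), Col5a2 at 1108 and 951 (ratio 0.858, interval 0.827 to 0.890) and Col5a3 at 308 and 247 (ratio 0.800, interval 0.745 to 0.859). Each was somewhat lower in Mettl3pKO and none by 1.5-fold. Col5a2 and Col3a1 are neighbours on chromosome 1, tail to tail, with 24615 bases between them (chr1:45311538-45349706 and chr1:45374321-45503282, GENCODE M21 on GRCm38). Col27a1, a long-chain fibrillar gene known from cartilage, stood at 189.6 and 155 CPM in mesenchyme-like cells and at 185 and 192 in duct and trunk-like cells. Col24a1, the last fibrillar gene of low level, had 12 and 3 UMIs in mesenchyme-like cells.

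Type VI collagen, the beaded filament, is assembled from Col6a1, Col6a2 and 1 of several longer chains. Col6a1 stood at 2256 and 2089 CPM in mesenchyme-like cells of WT and Mettl3pKO (ratio 0.926, interval 0.903 to 0.949), Col6a2 at 2666 and 2461 (ratio 0.923, interval 0.902 to 0.944), and Col6a3 at 727 and 703 (ratio 0.967, interval 0.926 to 1.01). Col6a6, another of the longer chains, was lower in Mettl3pKO, at 249 and 152, a ratio of 0.610 (0.558 to 0.666). Col6a5 was highest in mesothelium-like cells (23.0 and 28.2 CPM), and Col6a4 had 37 and 5 UMIs in mesenchyme-like cells. Col6a6 also had a ratio under 1 within both mesenchyme clusters, 0.617 (0.545 to 0.697) and 0.729 (0.633 to 0.838), and in male-marked and female-marked cells, 0.555 (0.492 to 0.624) and 0.402 (0.304 to 0.523).

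Over all members, 34 had 20 or more UMIs in mesenchyme-like cells, and of these 1 was at least 1.5-fold higher in Mettl3pKO and 7 at least 1.5-fold lower. Of all 12475 genes measured in this class, 8.89% were higher and 6.08% lower by the same rule. The median log2 ratio was -0.23 over the collagen genes and 0.02 over all genes. The 7 lower genes were Col4a5, Col6a4, Col6a6, Col7a1, Col8a1, Col17a1 and Col23a1, and the 1 higher was Col4a6, with 13 and 8 UMIs and an interval that includes 1. Of the 7, Col6a4 and Col17a1 entered through the WT library alone. The direction of such members follows from their entry, which raises the count of lower genes. Among cells of at least 13000 UMIs, a depth at which both libraries have cells (103 WT and 175 Mettl3pKO), 1 member was lower and none higher. With fewer cells, members of few UMIs may fall under the limit of 20. The number measured and the share over all genes at that depth are not given, so the 7 and the 1 cannot be compared directly. At that depth the ratio of Col4a5 was 1.03 (0.520 to 2.14), against 0.638 (0.423 to 0.937) over all cells, and that of Col6a6 was 0.849 (0.723 to 1.00).

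The member that stayed lower at that depth was Col8a1, a chain of the hexagonal networks of vessel walls and Descemet's membrane. It stood at 27.0 CPM in mesenchyme-like cells of WT and 7.24 in those of Mettl3pKO (301 and 29 UMIs), a ratio of 0.268 (95% counting interval 0.177 to 0.393). The ratio was 0.270 (0.139 to 0.504) in the cells of at least 13000 UMIs, 0.230 (0.113 to 0.421) in cluster 26, 0.292 (0.165 to 0.490) in cluster 28, 0.281 (0.142 to 0.516) in male-marked cells and 0.254 (0.0924 to 0.563) in female-marked cells. The direction was thus the same in every one of these subsets of the 2 libraries. The subsets share cells, and Col8a1 was picked out by its ratio in the cells of at least 13000 UMIs, so they are not separate support. After each cell was thinned to 7811 UMIs, 14% of WT and 4.26% of Mettl3pKO mesenchyme-like cells had a Col8a1 UMI (14.5% and 7.80% unthinned), against 0 of 90 WT erythroid-like cells (exact upper limit 4.02%). In WT the gene was highest in smooth muscle and pericyte-like cells, at 85.6 CPM over 59 UMIs, and in the 18 Mettl3pKO cells of that class it stood at 18.9 CPM over 5 UMIs. Its partner chain Col8a2 stood at 119 and 94.6 CPM in mesenchyme-like cells, a ratio of 0.796 (0.708 to 0.893).

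Other lower genes depended more on the cells compared. Col23a1, a transmembrane collagen, stood at 199.9 CPM in mesenchyme-like cells of WT and 116 in those of Mettl3pKO, a ratio of 0.578 (0.522 to 0.639) that was 0.732 (0.612 to 0.877) in cells of at least 13000 UMIs. Col7a1, the anchoring fibril under stratified epithelium, stood at 41.2 and 26.0, a ratio of 0.630 (0.504 to 0.780), and at 1.14 (0.778 to 1.62) in female-marked cells, where its direction was not the same. Col26a1 stood at 83.9 and 59.2 (ratio 0.705, interval 0.609 to 0.814). The transmembrane genes Col13a1 (19.8 and 22.7) and Col25a1 (7.35 and 6.49) were within 1.5-fold, and Col17a1, the hemidesmosome collagen, had 25 and 1 UMIs, a ratio of 0.111 (0.00271 to 0.680).

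The more abundant fibril-associated genes of mesenchyme were within 1.5-fold between the libraries. Col12a1, which coats fibrils in dense tissue, stood at 261 and 312 CPM (ratio 1.20, interval 1.12 to 1.28), Col14a1 at 498 and 556 (ratio 1.12, interval 1.06 to 1.17), and Col16a1 at 202 and 209 (ratio 1.03, interval 0.955 to 1.12). Col11a1, a minor fibrillar chain, stood at 54.6 and 69.1 (ratio 1.27, interval 1.09 to 1.46). Mesothelium-like cells differed from this: Col14a1 stood there at 1147 CPM in WT and 546 in Mettl3pKO, a ratio of 0.476 (0.437 to 0.518), and Col11a1 at 98.6 and 41.5, a ratio of 0.421 (0.304 to 0.572).

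In mesothelium-like cells 27 members were measured, with 6 higher and 6 lower in Mettl3pKO, where 14.3% of all genes were higher and 13.3% lower. Lower beside Col14a1 and Col11a1 were Col18a1 (626 and 299.5 CPM, ratio 0.478, interval 0.425 to 0.537), Col6a6 (136 and 77.4, ratio 0.571, interval 0.449 to 0.721), Col4a4 and Col9a2. Higher were Col6a3 (66.5 and 124, ratio 1.87, interval 1.47 to 2.37), Col5a3, Col4a1, Col4a2, Col15a1 and Col23a1. Of the lower genes, Col4a4 and Col9a2 entered through the WT library alone. Among cells with a doublet score under 0.1, 49 of the 77 Mettl3pKO cells remained. There the ratio of Col14a1 was 0.621 (0.564 to 0.683), that of Col18a1 0.642 (0.562 to 0.731) and that of Col4a1 1.01 (0.618 to 1.61). Col1a1, at 0.744 (0.727 to 0.762) over the whole class, was at 1.03 (1.00 to 1.06) in those cells, Col1a2 at 1.14 (1.10 to 1.18) and Col3a1 at 0.989 (0.959 to 1.02). Male-marked and female-marked cells differed for some members. Col6a3 had a ratio of 2.37 (1.66 to 3.43) in male-marked cells and 1.20 (0.693 to 1.99) in female-marked cells. Col6a6 had ratios of 0.770 (0.551 to 1.08) and 0.311 (0.152 to 0.572), and Col11a1 of 0.290 (0.177 to 0.459) and 0.736 (0.404 to 1.26). For each of the 3 genes the interval included 1 in one of these subsets.

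**Figure D2:**
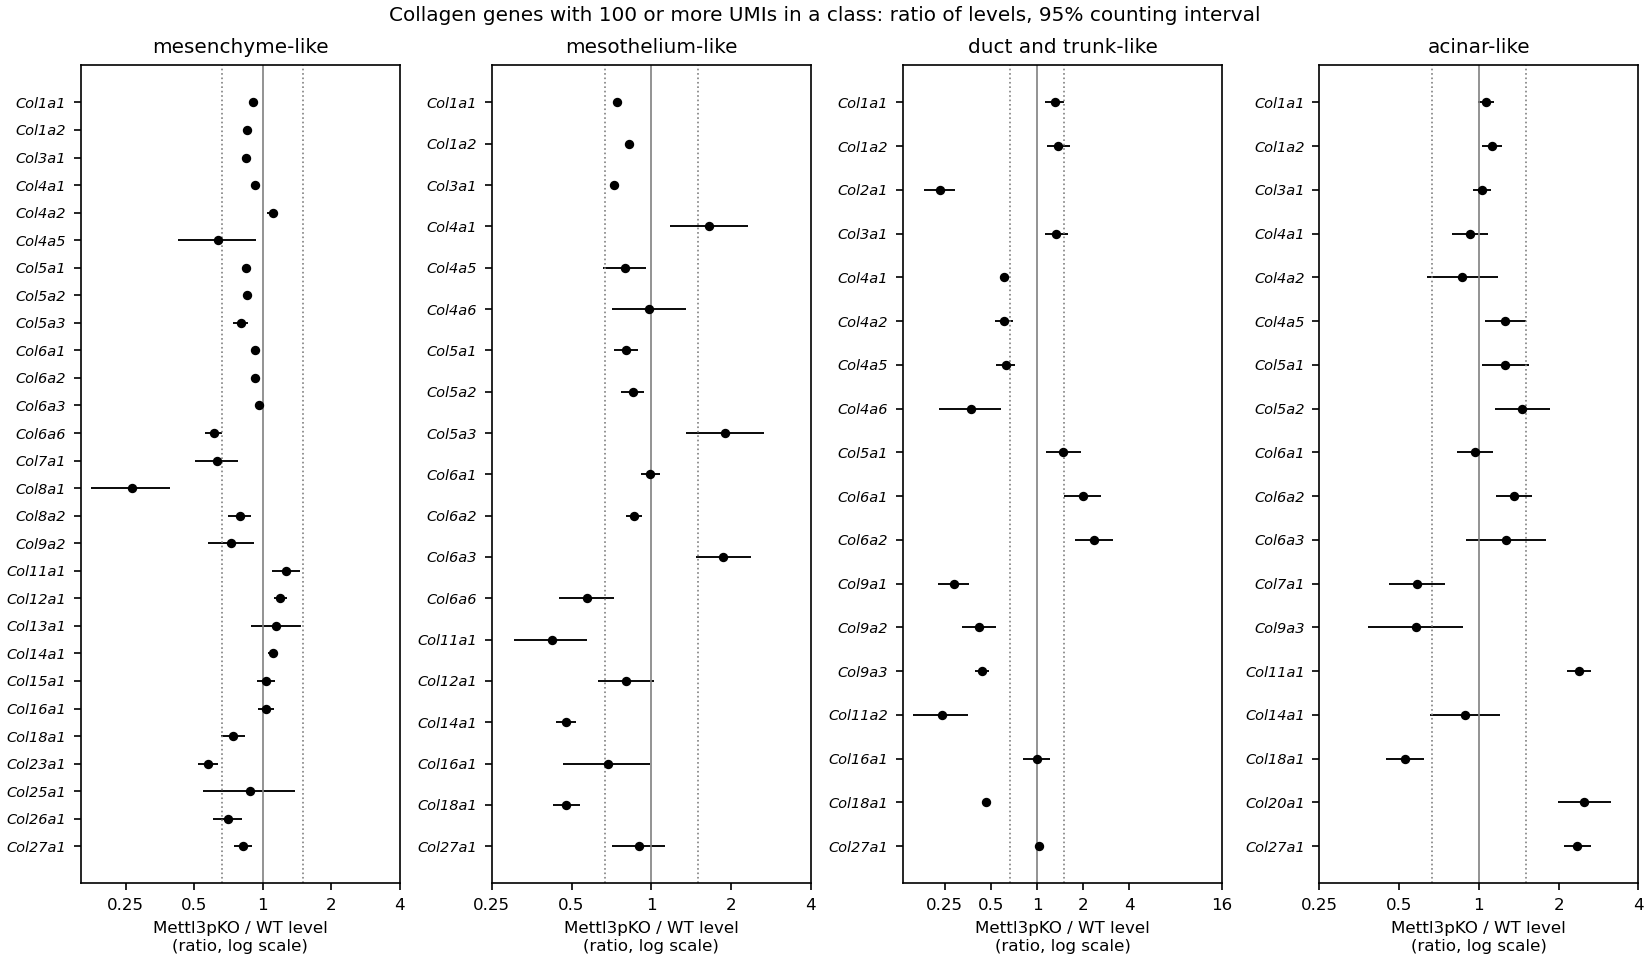
Ratio of the Mettl3pKO level to the WT level (x axis, log scale) for each collagen gene with 100 or more UMIs in the class (y axis), in mesenchyme-like, mesothelium-like, duct and trunk-like and acinar-like cells. Points are ratios, bars 95% counting intervals, the solid line marks a ratio of 1 and the dotted lines 1.5-fold either way; most mesenchyme points lie just left of 1, and the duct and trunk points of Col2a1, Col9a1, Col9a2, Col9a3 and Col11a2 lie at 0.440 or lower.

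Type IV collagen, the basement membrane network, is most widely built from Col4a1 and Col4a2. The pair is transcribed head to head on chromosome 8 (chr8:11198423-11312826, minus strand, and chr8:11312805-11449287, plus strand, GENCODE M21 on GRCm38). Their annotated starts lie 21 bases apart, so the RefSeq promoter windows of the 2 genes share 78 bases. The windows are printed because the 2 genes start within the same stretch. Capitals mark the shared bases, at chr8:11312777-11313076, minus strand for Col4a1 and chr8:11312555-11312854, plus strand for Col4a2.
Col4a1: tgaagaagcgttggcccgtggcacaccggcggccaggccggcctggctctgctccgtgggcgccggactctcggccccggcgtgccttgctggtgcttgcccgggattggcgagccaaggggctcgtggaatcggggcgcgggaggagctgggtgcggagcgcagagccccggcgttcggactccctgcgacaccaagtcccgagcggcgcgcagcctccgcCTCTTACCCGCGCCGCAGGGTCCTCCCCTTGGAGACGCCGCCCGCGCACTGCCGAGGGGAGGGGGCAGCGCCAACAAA
Col4a2: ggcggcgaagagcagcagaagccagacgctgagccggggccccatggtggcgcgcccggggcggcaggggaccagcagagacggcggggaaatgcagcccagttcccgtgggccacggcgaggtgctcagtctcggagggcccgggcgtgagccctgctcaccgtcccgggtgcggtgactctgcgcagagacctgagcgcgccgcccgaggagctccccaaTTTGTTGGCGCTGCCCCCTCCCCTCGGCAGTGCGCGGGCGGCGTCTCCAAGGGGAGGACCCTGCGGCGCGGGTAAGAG
Both windows hold CCAAT and GGGCGG on 1 strand or the other. Col4a3 and Col4a4 on chromosome 1 (72 bases between starts) and Col4a5 and Col4a6 on chromosome X (1309 bases) are arranged in the same way.

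In WT, Col4a1 stood at 4065 CPM in endothelium-like cells, 3686 in smooth muscle and pericyte-like cells, 1305 in mesenchyme-like cells, 244 in duct and trunk-like cells and 10.4 in acinar-like cells. Over these 5 classes Col4a2 had the same order, at 1328, 1186, 398, 72.0 and 2.85. Over beta-like, alpha-like and mesothelium-like cells the order was not the same, at 97.0, 71.4 and 35.0 for Col4a1 and 2.98, 10.6 and 20.5 for Col4a2. In mesenchyme-like cells of Mettl3pKO, Col4a1 stood at 1209 (ratio 0.926, interval 0.897 to 0.957) and Col4a2 at 441 (ratio 1.11, interval 1.05 to 1.17). In duct and trunk-like cells both were lower in Mettl3pKO: Col4a1 stood at 149, a ratio of 0.612 (0.571 to 0.655), and Col4a2 at 43.9, a ratio of 0.610 (0.536 to 0.693). Col4a5 and Col4a6, chains of specialised basement membranes, had their highest WT levels in mesothelium-like cells (175 and 52.5 CPM) and stood in duct and trunk-like cells at 56.3 and 8.71 in WT against 35.3 and 3.26 in Mettl3pKO. Their ratios there were 0.627 (0.542 to 0.723) and 0.374 (0.229 to 0.586). Col4a3 and Col4a4, the glomerular chains, had 14 and 46 UMIs in WT mesothelium-like cells and 2 and 7 in Mettl3pKO.

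The multiplexins Col15a1 and Col18a1 bridge basement membranes to the matrix, and the end of the Col18a1 chain is the source of endostatin. In WT, Col15a1 stood at 1584 CPM in endothelium-like cells, 172 in mesenchyme-like cells and 1.89 in duct and trunk-like cells. Col18a1 stood at 754 in endothelium-like, 626 in mesothelium-like, 489 in duct and trunk-like and 114 in mesenchyme-like cells. After thinning, 92.1% of WT duct and trunk-like cells had a Col18a1 UMI (94.2% unthinned), against 16.7% of WT erythroid-like cells (19.5% unthinned; median depths 10349 and 11392 UMIs). In Mettl3pKO the shares were 67.5% (79.5% unthinned) and 12.2%. The Col18a1 level in Mettl3pKO duct and trunk-like cells was 227 CPM, a ratio of 0.464 (0.439 to 0.490). The ratio was below 1 in the other 3 classes with 100 or more UMIs of the gene too: 0.740 (0.655 to 0.835) in mesenchyme-like, 0.478 (0.425 to 0.537) in mesothelium-like and 0.527 (0.446 to 0.622) in acinar-like cells. In beta-like cells it was 1.68 (1.10 to 2.57), over 44 and 51 UMIs. The Mettl3pKO beta-like class includes cells rich in mesenchymal RNA, described further on. The Mettl3pKO library had 10 endothelium-like cells, in which Col4a1 stood at 2005 and Col15a1 at 809 CPM; 3 of the 10 held 10 or more UMIs of Col1a1, Col1a2 and Col3a1 and no ratio is given.

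Duct and trunk-like cells, the bipotent epithelium of the pancreatic ducts (1276 in WT, 425 in Mettl3pKO), carried several collagens known from cartilage. Col2a1, the main fibre of cartilage, stood at 50.2 CPM in the WT library and 11.8 in the Mettl3pKO library (744 and 83 UMIs), a ratio of 0.234 (0.184 to 0.294). Of its UMIs in the kept WT cells, 93.9% lay in this class. The type IX chains, which coat type II fibrils, were lower as well: Col9a1 stood at 41.4 and 11.9 (ratio 0.287, interval 0.226 to 0.361), Col9a2 at 26.0 and 10.9 (ratio 0.420, interval 0.324 to 0.538) and Col9a3 at 132 and 57.8 (ratio 0.440, interval 0.394 to 0.489). Col11a2, a chain inside type II fibrils, stood at 16.6 and 3.97, a ratio of 0.239 (0.156 to 0.354). Each of these 5 genes was lower in Mettl3pKO by more than 1.5-fold. The 5 were put together after their values were seen. Col27a1 and Col11a1, also known from cartilage, were not lower: Col27a1, at 185 and 192, had a ratio of 1.03 (0.968 to 1.10), Col11a1 is described below, and Col16a1, at 20.4 and 20.4, a ratio of 0.998 (0.812 to 1.22).

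In this class 27 members were measured, with 7 higher and 10 lower in Mettl3pKO. Of all 12859 genes measured there, 11.6% were higher and 9.97% lower, and the median log2 ratio was 0.05 over the collagen genes and 0.01 over all genes. The 10 lower genes were Col2a1, Col9a1, Col9a2, Col9a3, Col11a2, the type IV genes Col4a1, Col4a2, Col4a5 and Col4a6, and Col18a1. The 7 higher were Col5a2, Col6a1, Col6a2, Col6a3, Col11a1, Col14a1 and Col20a1. Of these, Col11a1 and Col20a1 entered through the Mettl3pKO library alone. The direction of such members follows from their entry, which raises the count of higher genes. In male-marked cells, which made up 36.3% of the class in WT and 62.6% in Mettl3pKO, Col2a1 had a ratio of 0.411 (0.296 to 0.562), against 0.0794 (0.0290 to 0.174) in female-marked cells. For Col9a1 the ratios were 0.371 (0.275 to 0.493) and 0.181 (0.0820 to 0.348), and for Col18a1 0.497 (0.462 to 0.534) and 0.356 (0.307 to 0.411). All 3 genes were thus lower in both subsets, and for Col2a1 and Col18a1 the intervals of the subsets do not overlap. Sox9, the activator of cartilage collagen genes and a marker that helped to define this class, stood at 869 and 808 CPM, and Sox10 at 31.4 and 5.53.

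The class was made of 4 clusters, found without the collagen genes, that the libraries filled differently: cluster 5 (359 WT and 238 Mettl3pKO cells), cluster 6 (57 and 130), cluster 7 (433 and 43) and cluster 9 (427 and 14). Col2a1 was highest in WT in cluster 7, at 84.4 CPM, against 54.6 in cluster 5, 16.1 in cluster 9 and 4.99 in cluster 6. Within cluster 5, Col2a1 stood at 54.6 and 15.9 (ratio 0.291, interval 0.216 to 0.385), Col9a1 had a ratio of 0.314 (0.229 to 0.424), Col9a2 of 0.516 (0.341 to 0.765), Col9a3 of 0.468 (0.405 to 0.541) and Col11a2 of 0.491 (0.246 to 0.927). All 5 were thus lower within that cluster too, with smaller differences than over the class. Within cluster 7, Col2a1 had a ratio of 0.168 (0.0800 to 0.313), Col9a1 of 0.544 (0.321 to 0.869) and Col9a3 of 0.664 (0.506 to 0.858). Col9a2 had a ratio of 0.560 (0.262 to 1.07) and Col11a2 of 0.486 (0.153 to 1.19), with intervals that include 1. In cluster 6 the levels of these genes were low in both libraries, and Col9a3 had a ratio of 1.13 (0.614 to 2.25).

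The basement membrane genes differed less within some clusters than over the class. Col4a1 had a ratio of 0.694 (0.629 to 0.764) in cluster 5, 0.623 (0.463 to 0.847) in cluster 6 and 0.937 (0.810 to 1.08) in cluster 7, and Col18a1 ratios of 0.558 (0.517 to 0.601), 0.718 (0.559 to 0.929) and 0.746 (0.664 to 0.836). For Col4a1 the interval included 1 in cluster 7, whereas for Col18a1 it lay below 1 in all 3 clusters. Col27a1 was higher in Mettl3pKO in cluster 5, at 1.31 (1.17 to 1.46), and lower in cluster 6, at 0.605 (0.517 to 0.709). In cells of at least 13000 UMIs the class-wide ratios were 0.248 (0.190 to 0.322) for Col2a1, 0.420 (0.368 to 0.479) for Col9a3, 0.499 (0.466 to 0.533) for Col18a1 and 0.620 (0.570 to 0.676) for Col4a1.

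**Figure D3:**
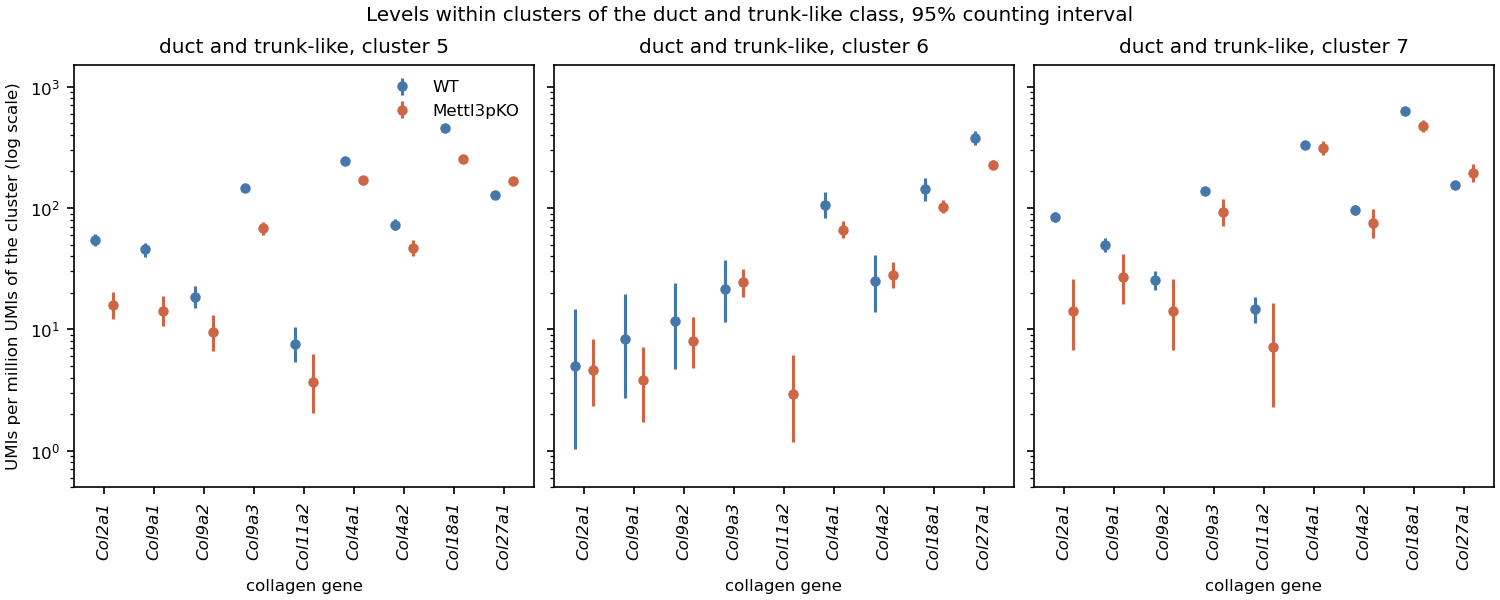
Levels of 9 collagen genes (x axis) in clusters 5, 6 and 7 of the duct and trunk-like class, as UMIs per 1000000 UMIs of the cluster on a log scale, for WT (blue) and Mettl3pKO (orange), with 95% counting intervals. In clusters 5 and 7 the orange points of Col2a1, Col9a1 and Col9a3 lie below the blue ones, and in cluster 6 those genes are low in both libraries; a gene with no UMI has no point.

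The higher genes of this class were mostly those of mesenchyme. Col6a1 stood at 7.29 CPM in the WT library and 14.5 in the Mettl3pKO library, and Col6a2 at 6.82 and 16, below 1% of their mesenchyme-like levels. Erythroid-like cells, not known to make collagen, held Col6a1 at 5.20 and 17.2 CPM. The libraries filled the erythroid-like class differently, with 69 WT and 2 Mettl3pKO cells in cluster 17 and 44 and 47 in cluster 19. It is thus not the same background in both libraries. Col11a1 stood at 0.742 and 11.6 CPM (11 and 82 UMIs), a ratio of 15.7 (8.31 to 32.6), and 69 of the 82 Mettl3pKO UMIs lay in cluster 6, where the level was 29.1, against 2.65 in cluster 5 and 4.26 in cluster 7. The level in Mettl3pKO erythroid-like cells was 29.0. Col11a1 entered the duct and trunk-like class through the Mettl3pKO library alone, so its direction there follows from its entry. After thinning, 6.12% of Mettl3pKO duct and trunk-like cells had a Col11a1 UMI, against 18.4% of Mettl3pKO erythroid-like cells (10.4% and 28.6% unthinned; median depths 15070.0 and 17180.0 UMIs), and the source of these UMIs was not tested. With each cell classed by its own marker genes instead of its cluster, 18 members were higher in this class. The share over all genes in that setting is not given, so the 18 cannot be set against it.

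Acinar-like cells, the enzyme-secreting epithelium (1861 in WT, 2132 in Mettl3pKO), had low collagen levels. Of 32 members measured, 6 were at least 1.5-fold higher in Mettl3pKO and 5 lower, where 21.1% of all 13621 genes were higher and 8.78% lower. Beside this, the median mitochondrial share of UMIs in the class was 6.23% in WT and 10.7% in Mettl3pKO, male-marked cells made up 9.35% and 52.0%, and the stricter cell filter left 1653 and 895 cells, with 2 members lower in place of 5. The part of these in the results was not tested. The share over all genes under the stricter filter is not given, so the 2 cannot be set against it. Col11a1 stood at 16.7 CPM in the WT library and 40.1 in the Mettl3pKO library (ratio 2.39, interval 2.16 to 2.66), Col27a1 at 13.2 and 31.0 (ratio 2.35, interval 2.09 to 2.65) and Col20a1, a fibril-associated gene, at 3.54 and 8.82 (ratio 2.49, interval 1.99 to 3.15). The other higher genes were Col15a1, Col16a1 and Col28a1, the last with 2 UMIs in WT and 25 in Mettl3pKO, which entered through the Mettl3pKO library alone. Lower were Col18a1 (12.0 and 6.31, ratio 0.527, interval 0.446 to 0.622), Col7a1 (5.44 and 3.18, ratio 0.584, interval 0.458 to 0.745), Col9a1, Col9a3 and Col19a1 (16 and 5 UMIs).

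Different clusters held most acinar-like cells of each library: clusters 2 and 15 held 537 and 538 WT cells but 156 and 43 Mettl3pKO cells, and clusters 0 and 3 held 859 and 855 Mettl3pKO cells but 140 and 121 WT cells. Within cluster 0 Col11a1 stood at 45.9 CPM in the WT library and 56.7 in the Mettl3pKO library, a ratio of 1.24 (1.01 to 1.53), and within cluster 3 the ratio was 1.26 (0.987 to 1.63). Col27a1 had ratios of 0.837 (0.664 to 1.07) and 1.11 (0.881 to 1.40), and Col20a1 of 1.21 (0.788 to 1.93) and 1.37 (0.786 to 2.57). In the clusters that hold most Mettl3pKO acinar-like cells the 3 genes were thus within 1.5-fold. In the other 4 acinar-like clusters the ratios ranged from 1.10 to 1.83 for Col11a1 and from 1.03 to 2.86 for Col27a1, and Col20a1, measured in clusters 2 and 15, had ratios of 2.34 and 0.800. Col18a1 had a ratio below 1 within clusters 0 and 3, 0.253 (0.181 to 0.356) and 0.530 (0.333 to 0.872), and from 0.535 to 1.19 in the other 4. Erythroid-like cells of Mettl3pKO held Col27a1 at 54.8 and Col11a1 at 29.0 CPM, against 31.0 and 40.1 in acinar-like cells, and in WT the erythroid-like levels were 20.1 and 1.30. In the erythroid-like class 11 members were measured, with 6 higher and 4 lower in Mettl3pKO, where 29.6% of all genes were higher and 26.9% lower, and Col11a1 and Col27a1 were among the 6. Col11a1 entered this class through the Mettl3pKO library alone, and some of the lower members through the WT library alone. The acinar-like level of Col27a1 was thus below the erythroid-like one in both libraries, and that of Col11a1 above it in both. With each cell classed by its own marker genes, 25 members were higher and 2 lower. The number measured and the share over all genes in that setting are not given, so these counts cannot be set against them.

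Mesenchymal collagen RNA was also counted in the epithelium. The sum of Col1a1, Col1a2 and Col3a1 stood in WT at 31342 CPM in mesenchyme-like cells. It stood at 192 CPM in alpha-like cells (0.611% of the mesenchyme-like level), 108 in beta-like (0.346%), 74.3 in Fev precursor-like (0.237%), 83.1 in endocrine progenitor-like (0.265%) and 119 in acinar-like cells (0.381%). Erythroid-like cells, used here as background, held 81.9 (0.261%), and endothelium-like cells 80.8 (0.258%). Of 33 members compared in WT erythroid-like cells, 13 had an interval above this 0.261% of their own mesenchyme-like level. The background as a share of the mesenchyme-like level thus differs between members. The Fev precursor-like and endocrine progenitor-like intervals of WT overlap that of erythroid-like cells (68.2 to 97.5). The beta-like interval (98.5 to 119) lay just above it. In the 245 WT beta-like cells with under 10 UMIs of the 3 genes the level was 87.8 CPM. In delta-like cells the level was 422 CPM, but 3 of the 95 cells held 77.3% of those UMIs.

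The share of cells with a UMI of these 3 genes, after thinning to 7811 UMIs, was 43.3% in WT erythroid-like cells (exact 95% interval 32.9 to 54.2%), 48.0% in beta-like cells (41.5 to 54.4%), 54.3% in alpha-like cells (48.5 to 60.02%) and 59.3% in acinar-like cells (57.0 to 61.7%). Unthinned, the shares were 59.3%, 74.4%, 68.9% and 78.3%. In Mettl3pKO they were, after thinning, 49.0%, 70.4%, 58.3% and 60.7% in the same order, and unthinned 83.7%, 88.9%, 82.7% and 85.8%. The beta-like and alpha-like intervals of WT overlap that of erythroid-like cells, and the acinar-like one lies above it. Thinning left out 135 of 1861 WT acinar-like, 16 of 318 alpha-like, 2 of 246 beta-like and 23 of 113 erythroid-like cells as too shallow, and none in Mettl3pKO.

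Alpha-like cells differed from the other classes in the make-up of this RNA. Col1a2 was 30.8% of the summed UMIs in WT mesenchyme-like cells, 26.1% in acinar-like, 31.7% in beta-like and 34.1% in erythroid-like cells, but 51.4% in alpha-like cells. In Mettl3pKO it was 29.9% in mesenchyme-like, 27.5% in acinar-like and 44.1% in alpha-like cells. In the alpha-like cells with under 10 UMIs of the 3 genes (313 in WT, 124 in Mettl3pKO) Col1a2 made up 56.9% in WT and 42.1% in Mettl3pKO, so the excess did not lie in a few rich cells. Its level in alpha-like cells was 98.5 CPM in WT and 72.3 in Mettl3pKO over the whole class, against 27.9 and 52.7 in erythroid-like cells. In the cells with under 10 UMIs of the 3 genes it was 68.7 and 53.5, against 27.9 and 44.0 in erythroid-like cells with under 10. After thinning 32.1% of WT alpha-like and 17.8% of WT erythroid-like cells had a Col1a2 UMI (42.1% and 28.3% unthinned), and in Mettl3pKO 33.1% and 38.8% (52.0% and 53.1%), so the share of cells did not exceed background there.

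Other collagens stood well above that background in endocrine cells. Col9a2 stood at 123 CPM in WT endocrine progenitor-like cells, 92.9 in Fev precursor-like, 79.6 in delta-like, 72.6 in alpha-like and 34.1 in beta-like cells, against 32.9 in mesenchyme-like and 2.60 in erythroid-like cells. Col11a2 had the same order of classes, at 144, 31.1, 26.2, 24.5 and 11.7, against 1.34 in mesenchyme-like cells. The Col9a2 level was 374% of the mesenchyme-like one in endocrine progenitor-like, 282% in Fev precursor-like, 221% in alpha-like and 104% in beta-like cells. In delta-like and alpha-like cells, neighbours in this order, the counting intervals of both genes overlap. After thinning, 49.8% of WT Fev precursor-like, 38.1% of alpha-like and 20.9% of beta-like cells had a Col9a2 UMI (54.2%, 51.9% and 37.0% unthinned), against 3.33% of erythroid-like cells (3.54%). For Col11a2 the share was 46.3% in endocrine progenitor-like cells (50.5% unthinned), against 2.22% in erythroid-like cells. Col9a3, a partner of Col9a2 in the type IX trimer, stood at 107 CPM in endocrine progenitor-like cells but at 2.65 in Fev precursor-like, 5.29 in alpha-like and 0.995 in beta-like cells, and Col9a1 at 8.59 in endocrine progenitor-like and 5.29 in alpha-like cells.

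The windows of Col9a2 and Col11a2 (RefSeq, GRCm38.p6) are printed because both genes stood above the mesenchyme-like level in endocrine cells; capitals mark GGGCGG or CCGCCC and, in Col11a2, TATAAA, the TATA box. Col9a2 lies at chr4:121039316-121039615, plus strand, and Col11a2 at chr17:34038888-34039187, plus strand.
Col9a2: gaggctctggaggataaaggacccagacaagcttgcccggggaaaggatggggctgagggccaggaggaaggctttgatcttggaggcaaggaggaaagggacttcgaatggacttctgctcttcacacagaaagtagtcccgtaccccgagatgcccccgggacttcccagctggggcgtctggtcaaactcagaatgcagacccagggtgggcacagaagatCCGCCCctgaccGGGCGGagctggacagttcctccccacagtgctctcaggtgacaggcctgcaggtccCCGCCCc
Col11a2: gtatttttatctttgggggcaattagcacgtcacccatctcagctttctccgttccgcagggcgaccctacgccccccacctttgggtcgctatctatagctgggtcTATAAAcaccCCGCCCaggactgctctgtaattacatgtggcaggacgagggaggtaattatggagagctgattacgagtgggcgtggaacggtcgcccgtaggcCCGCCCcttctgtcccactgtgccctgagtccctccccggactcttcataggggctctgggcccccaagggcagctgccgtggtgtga
The cores ACAAAG and ACAATG, which Sox proteins can bind, were in neither window on either strand. They were in 18.7% and 12.6% of all windows and in 4 and 1 of the 37 collagen windows. TATAAA (or TTTATA) was in 13.6% of all windows and in 4 of the 37.

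Between the libraries, Col9a2 in alpha-like cells stood at 72.6 CPM in the WT library and 51.8 in the Mettl3pKO library, a ratio of 0.713 (0.564 to 0.896), and Col11a2 at 24.5 and 31.8, a ratio of 1.30 (0.930 to 1.79). In beta-like cells Col9a2 stood at 34.1 and 34.2 (ratio 1.00, interval 0.764 to 1.31) and Col11a2 at 11.7 and 11.2 (ratio 0.954, interval 0.586 to 1.53). None of these reached 1.5-fold. Col4a1 was also above the erythroid-like level of 31.2 CPM in WT, at 71.4 and 97.0 in alpha-like and beta-like cells, with 59.4 and 114 in Mettl3pKO. The Mettl3pKO beta-like levels here include the 23 cells rich in mesenchymal RNA described below. Of 20 members measured in alpha-like cells 2 were higher and 3 lower, where 6.15% of all genes were higher and 6.52% lower. The interval excluded 1 for Col5a1 alone among these 5 (35 and 6 UMIs, ratio 0.366, interval 0.126 to 0.878). Col5a1 entered this class through the WT library alone. Mettl3pKO had 9 endocrine progenitor-like, 21 Fev precursor-like and 3 delta-like cells, and no ratio is given for those classes.

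Col6a3 and Col6a6 stood higher in beta-like than in alpha-like cells. Col6a3 stood at 114 CPM in WT beta-like cells, 13.7 in Fev precursor-like, 7.21 in alpha-like, 3.27 in delta-like and 2.60 in erythroid-like cells, and no UMI was found in 184 endocrine progenitor-like cells, which allows up to 1.72 CPM. Its level in beta-like cells was 15.7% of the mesenchyme-like one, whereas Col6a1 and Col6a2 reached 0.518% and 0.411%. After thinning, 51.6% of WT and 43.8% of Mettl3pKO beta-like cells had a Col6a3 UMI (74.0% and 61.1% unthinned), against 4.97% of WT alpha-like and 3.33% of WT erythroid-like cells. Col6a6 stood at 34.6 CPM in beta-like and 27.3 in Fev precursor-like cells, at 3.60 in alpha-like cells, and had no UMI in 113 erythroid-like cells, which allows up to 1.95 CPM. In Mettl3pKO beta-like cells Col6a3 stood at 103 (ratio 0.896, interval 0.771 to 1.04) and Col6a6 at 34.6 (ratio 0.999, interval 0.762 to 1.31). These levels include the 23 cells rich in mesenchymal RNA described below. Among cells with a doublet score under 0.1 Col6a3 stood at 115 and 73.6 CPM, a ratio of 0.640 (0.530 to 0.769), and Col6a6 at 34.7 and 34.9, a ratio of 1.01 (0.748 to 1.35). Col6a3 was thus at least 1.5-fold lower in those cells and not over the whole class.

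**Figure D4:**
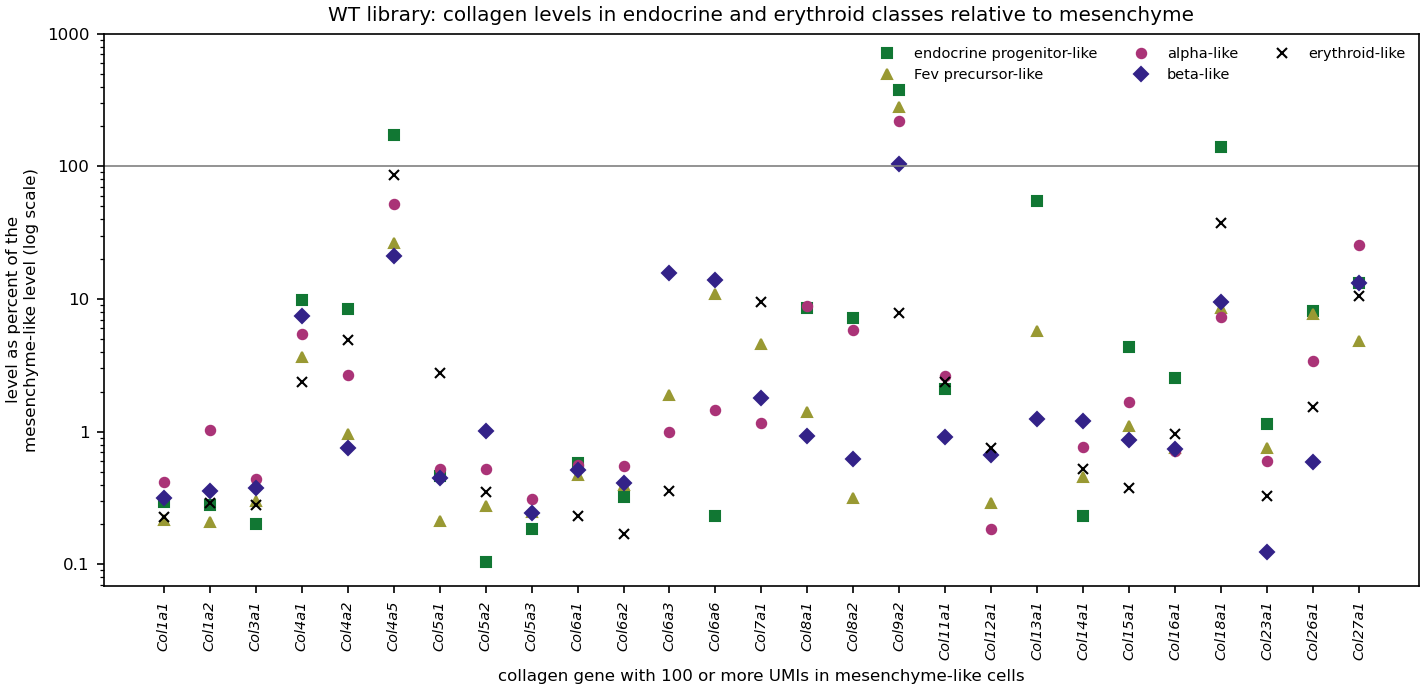
WT library: level of each collagen gene with 100 or more UMIs in mesenchyme-like cells (x axis), in beta-like, alpha-like, Fev precursor-like, endocrine progenitor-like and erythroid-like cells, as percent of its mesenchyme-like level (y axis, log scale; the line is 100%, and a gene with no UMI has no point). Col1a1, Col1a2 and Col3a1 lie at 1.02% or lower in every class shown, whereas Col6a3 lies at 15.7% in beta-like cells. Col9a2 lies above 100% in all 4 endocrine classes, but in beta-like cells by no more than counting error.

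In Mettl3pKO beta-like cells the genes of mesenchyme stood far above WT. Doublet calling had removed 338 WT cells but only 1 Mettl3pKO cell, so the libraries were not equally cleared of doublets. Summed levels under other settings are given in the last section. Col1a1 stood at 41.3 CPM in the WT library and 769 in the Mettl3pKO library, a ratio of 18.6 (15.9 to 21.9). Col1a2 stood at 34.3 and 504, and Col3a1 at 32.8 and 501, with ratios of 14.7 and 15.2. Of 22 members measured 16 were at least 1.5-fold higher and none lower, where 12.7% of all genes were higher and 4.86% lower, and the median log2 ratio was 2.84 over the collagen genes against 0.04 over all genes. Some of the 16, such as Col5a3, Col8a2 and Col23a1, entered through the Mettl3pKO library alone. The direction of such members follows from their entry, which raises both the count and the median. These UMIs lay in few cells: 23 of the 162 Mettl3pKO beta-like cells had 10 or more UMIs of Col1a1, Col1a2 and Col3a1 and held 93.9% of them, with up to 382 in 1 cell, whereas 1 of 246 WT cells had 10 or more. Beside them, the 10 mesenchyme marker genes summed to 1648 CPM in those 23 cells and 18.7 in the other 139, and the median doublet score was 0.149 against 0.00820. Over the class, 1 of the 10 markers was at 0 in Mettl3pKO and none in WT, and their sum was 16.9 CPM in WT and 269.6 in Mettl3pKO.

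Among cells with a doublet score under 0.1 (241 WT and 126 Mettl3pKO), 15 members were measured, with 5 higher and 1 lower, and the ratio of Col1a1 was 2.90 (2.32 to 3.65). The share over all genes in these cells is not given, so the 5 and the 1 cannot be set against it. Of the 420 UMIs of Col1a1, Col1a2 and Col3a1 in these Mettl3pKO cells, 1 cell held 140, or 33.3%, and the mesenchyme markers summed to 1007 CPM in it. In the cells with under 10 UMIs of the 3 genes their sum stood at 87.8 CPM in the WT library and 128 in the Mettl3pKO library, and erythroid-like cells with under 10 held 81.9 and 123. The 2 classes thus had like levels in each library. Col6a3 and Col6a6 were not among the 16 genes. Whether each of the 23 cells is 1 cell or a doublet was not tested.

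Macrophage-like cells had the same pattern. In the class (73 cells in WT, 41 in Mettl3pKO) 17 members were measured, and all 17 were at least 1.5-fold higher in Mettl3pKO, where 21.3% of all genes were higher and 13.6% lower. Some of the 17 entered through the Mettl3pKO library alone, such as Col5a3 (1 and 31 UMIs) and Col12a1 (0 and 22). The direction of such members follows from their entry, so the count of 17 is not evidence by itself. The summed level of Col1a1, Col1a2 and Col3a1 was 241 CPM in WT and 2742 in Mettl3pKO. In WT 1 of the 73 cells held 64.3% of it, and in Mettl3pKO 8 of the 41 cells held 96.6%. In the cells with under 10 UMIs of the 3 genes the sum stood at 87.6 and 121 CPM, and among cells with a doublet score under 0.1 at 85.3 and 145. The mesenchyme markers summed to 1508 CPM in those 8 cells and 15.7 in the other 33. In alpha-like cells 5 of 318 WT and 3 of 127 Mettl3pKO cells had 10 or more and held 38.5% and 25% of these UMIs. The summed level was 192 CPM in WT and 164 in Mettl3pKO over the whole class, and 121 and 127 without those cells.

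**Figure D5:**
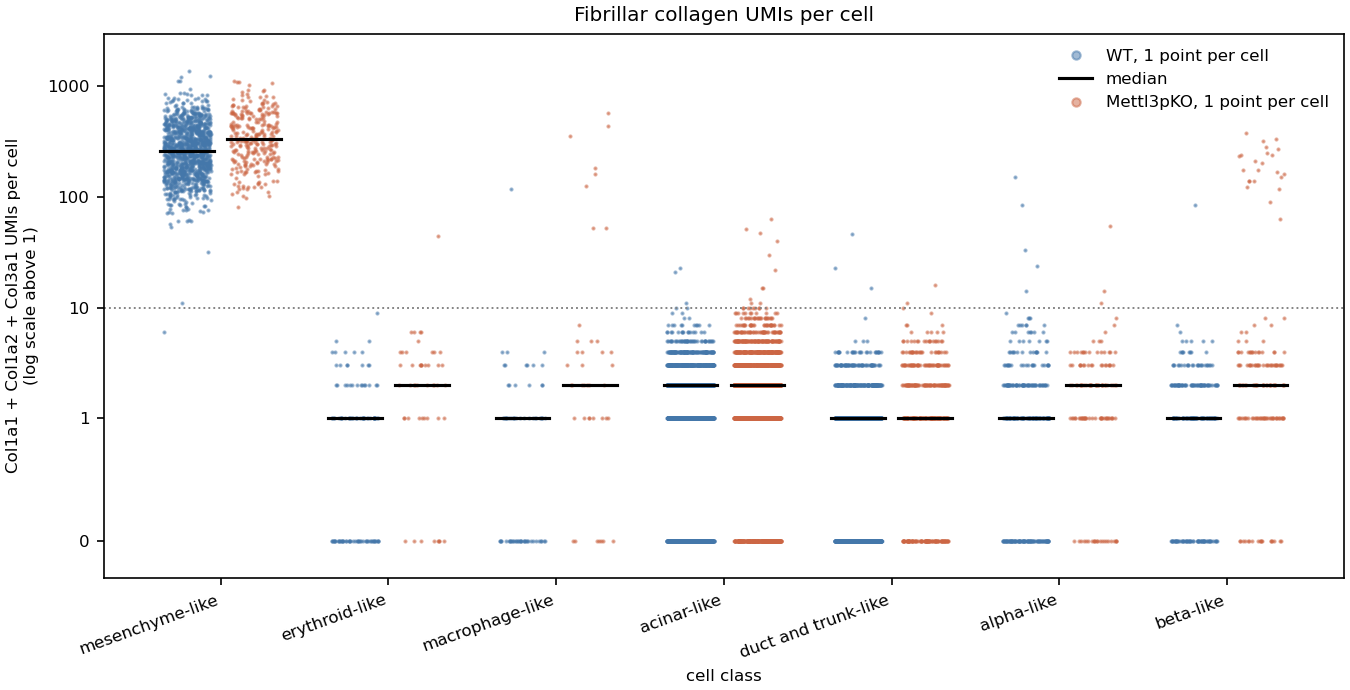
UMIs of Col1a1, Col1a2 and Col3a1 together in each cell (y axis, log scale above 1) by class (x axis), with 1 point per cell, WT in blue, Mettl3pKO in orange, and medians as black bars. The dotted line marks 10 UMIs; 23 Mettl3pKO beta-like cells and 8 Mettl3pKO macrophage-like cells lie above it, in the range of mesenchyme-like cells, while the medians of the 6 classes other than mesenchyme-like are 1 or 2.

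Collagen chains are hydroxylated, folded, secreted, trimmed and cross-linked by a shared set of enzymes. Of 32 genes of biosynthesis and processing, 29 were measured in mesenchyme-like cells, with 2 higher and 1 lower in Mettl3pKO and a median log2 ratio of -0.11, against 0.02 over all genes. Over all genes of this class, 8.89% were higher and 6.08% lower, and the few calls in this list and the next 3 are to be read against those shares. The higher ones were Loxl4 at 2.06 and 4.74 CPM (ratio 2.30), a cross-linking oxidase, and P3h2 at 7.17 and 11.2 CPM (ratio 1.57), a prolyl 3-hydroxylase. Tll1, a procollagen protease like Bmp1, was lower (27 and 6 UMIs, ratio 0.62) and entered through the WT library alone. Bmp1, which trims procollagen, stood at 274 and 212 CPM, within 1.5-fold. Of 8 collagen receptors, 6 were measured and none passed 1.5-fold. Itga11, an integrin chain that binds fibrillar collagen, stood at 16.9 and 12.2 CPM and Ddr2 at 242 and 213. Of 9 breakdown genes, 7 were measured, with Timp1, an inhibitor of matrix proteases, higher (16 and 25.2 CPM) and Mmp2 at 417 and 289.5. Of 19 matrix partners, all were measured, with Lama5 higher (1.17 and 6.24 CPM) and Lama1 lower (9.32 and 5.74). Lama5 entered through the Mettl3pKO library alone.

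In duct and trunk-like cells 52 of the 68 pathway genes were measured, with 15 higher and 2 lower, where 11.6% of all genes were higher and 9.97% lower. Higher were Fn1 at 53.5 and 129 CPM (ratio 2.42), the fibronectin gene, Timp3 at 12.7 and 30.3 CPM (ratio 2.39), Loxl2 at 2.16 and 7.93 CPM (ratio 3.67) and Fmod at 4.12 and 12.0 CPM (ratio 2.93), a fibril-binding proteoglycan. Lower were Lama4 at 40.1 and 17.6 CPM (ratio 0.438), a laminin chain, and Loxl3 at 12.3 and 6.09 CPM (ratio 0.496), a cross-linking oxidase. Of the receptors, the integrin chains Itga1 and Itga2 were higher, at 7.29 and 13.0 CPM and at 3.37 and 5.81 CPM. In acinar-like cells 59 were measured, with 21 higher and 1 lower, where 21.1% of all genes were higher and 8.78% lower. The higher genes included Fkbp10 at 4.6 and 17.5 CPM (ratio 3.81), a collagen chaperone, Pcolce at 8.83 and 22.1 CPM (ratio 2.50), Hspg2 at 10.9 and 36 CPM (ratio 3.30), the perlecan gene, and Ddr1 at 23.2 and 50.3 CPM (ratio 2.17), the epithelial collagen receptor. As described above, the libraries filled different clusters of both classes, and levels of these genes within clusters are not given. In beta-like cells 46 were measured, with 29 higher and 1 lower, where 12.7% of all genes were higher and 4.86% lower. The largest ratios were those of mesenchymal genes such as Postn at 0.746 and 42.1 CPM (ratio 56.4) and Lox at 0.995 and 44.3 CPM (ratio 44.5), beside the 23 cells rich in mesenchyme markers. Postn and Lox entered through the Mettl3pKO library alone.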

How the data were processed

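The deposited tables hold UMI counts as whole numbers, with cells as lines and genes as columns, written by the BD WTA Rhapsody Analysis Pipeline 1.8 per the file headers; mm10 and Seurat are named in the submitters' processing notes, with no role. The last line of each table was incomplete and was left out. The collagen genes and every list here were chosen with earlier results of these data known.

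Cells under 200 genes or over 25% mitochondrial UMIs were left out, and cells marked by Scrublet in each library were removed. Both libraries were clustered together (scanpy 1.11.5, Python 3.11.15) on 2000 variable genes without collagen, globin, mitochondrial, ribosomal and sex-linked genes, with 30 principal components, 15 neighbours and Leiden resolution 1.0 (leidenalg 0.10.2, igraph 0.11.9), which gave 29 clusters. Clusters were named from 21 marker lists. A cluster with a median doublet score over 0.1, or whose leading genes went against its name, stayed unnamed, and the part of this rule on leading genes was written after those genes were seen. The names are rebuilt and may differ from those of the study.

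Counts were summed per library and class. Levels have exact Poisson intervals, shares Clopper-Pearson intervals and ratios exact conditional binomial intervals, all at 95% (scipy 1.17.1, numpy 2.4.6). A gene was measured in a class with 20 or more UMIs over both libraries, called higher or lower at 1.5-fold, and compared only in classes of 30 or more cells in each library. Log2 ratios had 0.5 UMIs added. Where a gene had no UMI, 3 counts set the level still allowed. Full values are given for members with 100 or more UMIs in a class, and of each pathway list for up to 4 genes with the ratio farthest from 1; genes with fewer UMIs that are named for a count were chosen after their values were seen. On simulated counts of 12458 genes in mesenchyme-like cells, 95.7% of the intervals held the true ratio and 5.23% of unchanged genes passed 1.5-fold. The simulated counts were Poisson sums per class, the model that the intervals assume. They leave out the clumping of UMIs in cells and the mix of clusters, so they check the computation only.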

Additional observations from a re-analysis of the deposited data

How the results depend on the processing

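In mesenchyme-like cells the 7 lower members became 1 among cells of 13000 UMIs or more, 3 at a 2-fold call and 4 among male-marked cells. The 1 higher member became 4 with cells classed by their own markers and 0 with no cell filter, with Scrublet-marked cells kept, with collagen genes kept among the variable genes, at 13000 UMIs, at 50 or more UMIs, at a 2-fold call and among female-marked cells. In duct and trunk-like cells the 7 higher members became 11 under the stricter cell filter, 18 with own markers, and 4 at a 2-fold call and among female-marked cells. In acinar-like cells the 6 higher members became 25 with own markers, and the 5 lower became 2 under the stricter filter, with own markers and at a 2-fold call, and 3 at 13000 UMIs and at 50 or more UMIs. For these settings the numbers measured and the shares over all genes are not given, so the counts cannot be set against them. Col4a1 in mesothelium-like cells had a ratio of 0.919 with Scrublet-marked cells kept, Col4a5 in mesenchyme-like cells 1.03 at 13000 UMIs, and Col7a1 there 1.14 among female-marked cells. Of 83 ratios followed, 83 stayed on the same side of 1 with collagen genes kept for clustering, 76 at Leiden resolution 2.0 and 67 with own markers.

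The mesenchyme-like share of collagen UMIs, 80.7% in WT and 56.9% in Mettl3pKO, was 81.9% and 60.4% under the stricter filter, 77.7% and 54.1% with no filter, 60.9% and 45.7% with Scrublet-marked cells kept, 81.7% and 59.6% without the top 5% of doublet scores, 77.4% and 64.5% with own markers, 77.5% and 53.1% with collagen genes kept, and 66.5% and 49.1% at 13000 UMIs. In Mettl3pKO it was 56.6% at Leiden resolution 2.0. The summed Col1a1, Col1a2 and Col3a1 level of alpha-like and beta-like cells together, 0.481% of the mesenchyme-like level in WT and 4.05% in Mettl3pKO, was 0.440% and 3.78% under the stricter filter, 0.329% and 0.553% with Scrublet-marked cells kept, 0.440% and 2.99% without the top 5% of doublet scores, 0.510% and 2.87% with own markers, 0.517% and 4.54% at 13000 UMIs, and 1.18% and 4.62% with all members summed. In Mettl3pKO it was 3.48% with no filter and 0.576% at Leiden resolution 2.0. Among cells with a doublet score under 0.1, chosen after seeing the data, the shares were 81.2% and 69.3% and the levels 0.440% and 0.614%. Apart from smaller numbers of cells or genes, the cause of these changes was not tested. No paired analysis was possible because each genotype has 1 library. Depth limits members under 20 UMIs and classes under 30 cells.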
